A study of Mus musculus with 12 samples.

Results

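The genes described here are 9 genes of cholinergic signalling in the brain: the muscarinic acetylcholine receptors Chrm1, Chrm2, Chrm3 and Chrm4, the nicotinic receptor subunits Chrna4, Chrna5, Chrna7 and Chrnb2, and Ache, which codes for acetylcholinesterase. They were chosen by gene symbol, and no measured value entered the rule, but earlier results of these data were known when the list was made. All 9 were among the 17564 genes of both comparisons. RNA-seq had been made from the ventral hippocampus of male C57BL/6 mice that were either WT or carried 1 Val and 1 Met copy of the Bdnf gene (BDNF het-Met, the Val66Met variant). Each genotype received corticosterone (CORT), the main glucocorticoid of rodents, by mouth at 25 mg/l in 1% ethanol for 6 weeks from 2 months of age, or vehicle (VEH), which was 1% ethanol alone. The labels give 4 groups of 3 libraries, CORT and VEH in each genotype, with the RNA of 2 animals pooled in each library. All groups, VEH included, received ethanol, and every BDNF het-Met mouse kept 1 wild-type copy of the gene.

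Acetylcholine reaches the hippocampus mainly from neurons of the basal forebrain and acts there on receptors of 2 kinds. Muscarinic receptors are coupled to G proteins: M1 and M3 (Chrm1 and Chrm3) act through Gq and phospholipase C and close potassium channels of the M current, while M2 and M4 (Chrm2 and Chrm4) act through Gi and reduce transmitter release and cyclic AMP. Nicotinic receptors are cation channels built of 5 subunits, and acetylcholinesterase ends the signal by splitting acetylcholine in the synaptic cleft.

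The values were those of the joint limma-voom fit of the authors, which held for every gene a mean level over all libraries in log2 CPM (log2 counts scaled to library size) and, per genotype, a CORT effect. The CORT effect is the log2 fold change of CORT over VEH, so that a positive value means a higher level under CORT, and it is given as the estimate ± its moderated standard error. No values per library were analysed here, so neither the depth of a library nor a level per group can be given, and each error below comes from the model. The residual degrees of freedom listed were 7, where 12 libraries in 4 groups leave 8, so the number listed is that of 11 libraries. The standard errors in WT mice were larger than those in BDNF het-Met mice, with a median ratio of 1.12 over all genes (quartiles 1.12 and 1.14), and 2 against 3 libraries in WT with 3 against 3 in BDNF het-Met mice would give 1.12. The study describes a filter of outlier samples for its co-expression networks, and whether a library was left out of the limma fit as well is not given in the sources used here, so every WT value below may rest on 5 libraries. A gene was called at an uncorrected p below 0.05 (limma), and the term DEG is kept for the rule of the study, which asks in addition for a fold change above 1.3. In bulk tissue, fewer cells of a type and less RNA per cell cannot be told apart.

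No member was called for the CORT effect in WT mice (0 of 9, against 3.83% of all genes), and none in BDNF het-Met mice (0 of 9, against 13.2%). It follows that no member met the DEG rule, which adds a fold minimum to the same p (met by 1.25% of all genes in WT mice and 3.24% for BDNF het-Met). Estimates were small: between -0.15 (Chrm3) and 0.18 (Chrm4) on the log2 scale for WT mice, and between -0.11 (Chrna4) and 0.26 (Chrna5) for BDNF het-Met mice. The estimate was above 0 for 7 of 9 members (WT) and 8 of 9 members (BDNF het-Met), where 48.9% and 48.2% of all genes had an estimate above 0. The median over the members was 0.02 (WT) and 0.04 (BDNF het-Met), against -0.0026 and -0.0061 over all genes. Averaged over both genotypes, Chrm1 alone was called (1 of 9, higher under CORT, against 13.3% of all genes), and its adjusted p was 0.337 (Benjamini-Hochberg over all genes). For a CORT effect that differs between genotypes no member was called (0 of 9, against 2.41% of genes), nor was any in the joint F test over all 4 groups (0 of 9, against 7.43%).

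**Figure D1:**
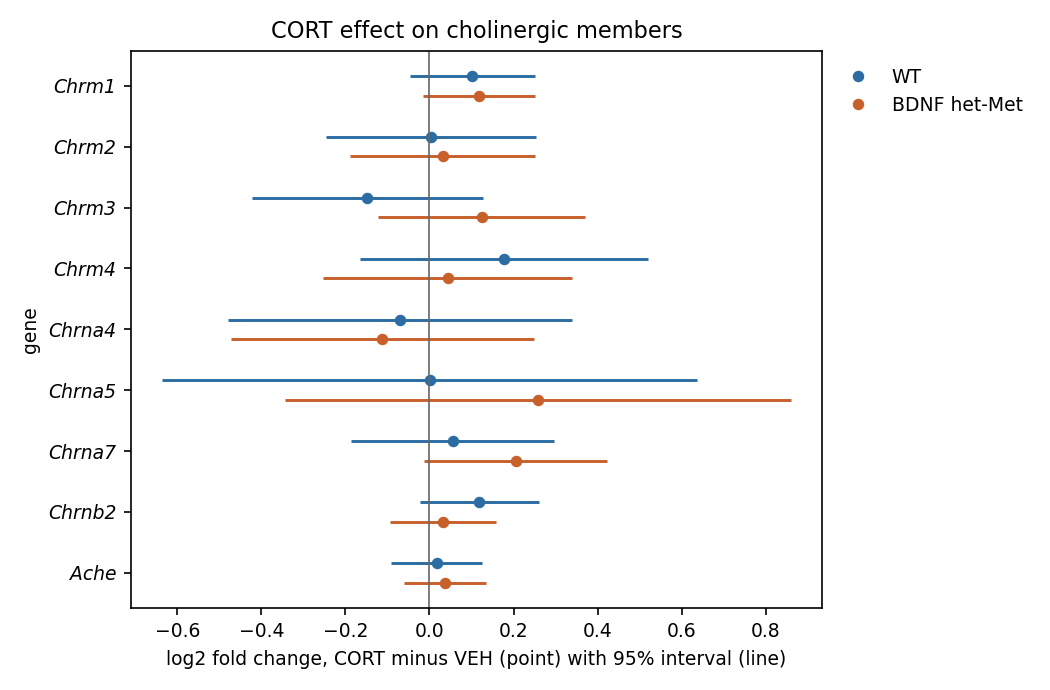
CORT effect on the 9 cholinergic genes as log2 fold change of CORT over VEH (horizontal axis), with points for the estimates in WT and BDNF het-Met mice and lines for their 95% intervals. All 18 intervals include 0, and they are widest for Chrna5 and narrowest for Ache.

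The members covered a wide range of levels. Per kilobase of exon, the mean level was highest for Chrm1 (5.33 log2 CPM per kb, above 93.9% of genes), followed by Ache (3.55), Chrnb2 (3.25), Chrm3 (3.13), Chrm4 (2.99), Chrna7 (2.70) and Chrna4 (2.39). Chrm2 (0.76 log2 CPM per kb) and Chrna5 (0.20) lay lowest, with 32.6% and 25.9% of genes below them. The spread of these levels over libraries was not analysed here, so which neighbours in this order differ beyond it cannot be said. The length used for Chrm4 (GENCODE M21) was a single exon of 1440 bases, the coding length alone.

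**Figure D2:**
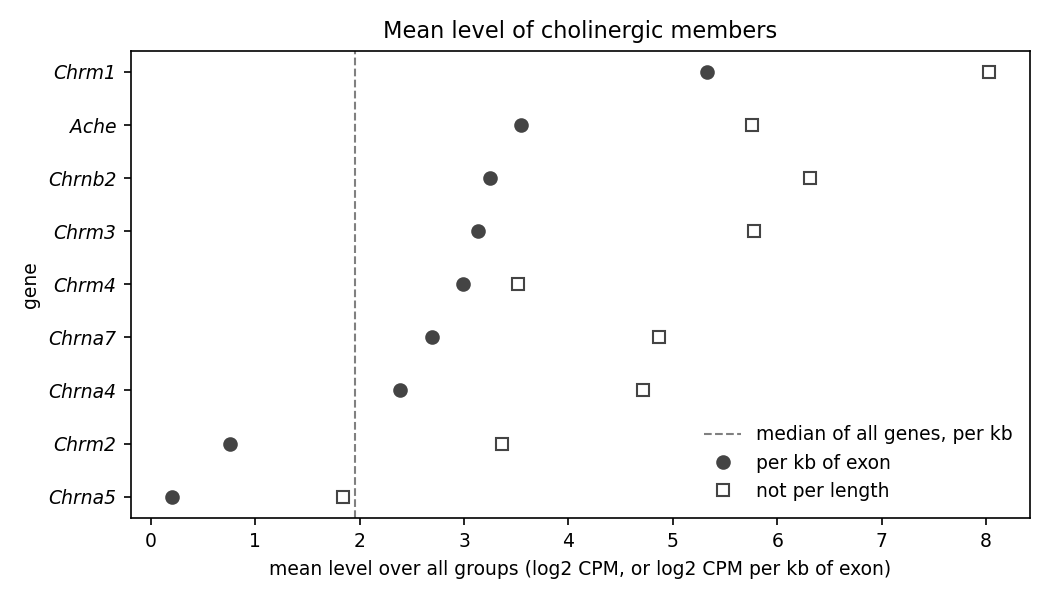
Mean level of each member over all groups, per kb of exon (filled circles, log2 CPM per kb) and without regard to length (open squares, log2 CPM), with the median of all genes per kb as a dashed line. Chrm1 lies highest on both scales, and Chrm2 and Chrna5 lie below the median per kb.

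CORT acts through the glucocorticoid and mineralocorticoid receptors, which bind DNA at paired copies of a short half-site, so the promoters of the members were read from RefSeq (GRCm38.p6, 250 bases before to 50 bases after the start). For 8 of the 9 members a promoter was found, none being listed for Chrm1, and Chrna5 had 2 windows, which makes 9. The promoters of Chrna7 and Chrnb2, the members of smallest p in BDNF het-Met and in WT mice, and that of Ache, the member of largest genotype statistic (below), are shown 5′ to 3′ on the strand of the gene. Capitals mark GC boxes (GGGCGG on either strand, adjoining copies run together), the binding motif of Sp1.
Chrna7, chr7:63212477-63212776, minus strand: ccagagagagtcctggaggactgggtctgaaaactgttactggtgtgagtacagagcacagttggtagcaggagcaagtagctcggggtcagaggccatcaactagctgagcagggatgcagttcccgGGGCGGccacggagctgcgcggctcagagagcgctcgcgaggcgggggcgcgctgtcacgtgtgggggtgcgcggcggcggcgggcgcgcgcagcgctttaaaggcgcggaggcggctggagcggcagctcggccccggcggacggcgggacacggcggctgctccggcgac
Chrnb2, chr3:89764583-89764882, minus strand: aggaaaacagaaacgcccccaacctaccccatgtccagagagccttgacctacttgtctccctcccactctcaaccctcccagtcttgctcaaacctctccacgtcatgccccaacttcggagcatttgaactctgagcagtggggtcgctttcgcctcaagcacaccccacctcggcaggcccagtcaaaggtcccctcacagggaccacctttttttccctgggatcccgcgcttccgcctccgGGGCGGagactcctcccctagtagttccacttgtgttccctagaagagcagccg
Ache, chr5:137288004-137288303, plus strand: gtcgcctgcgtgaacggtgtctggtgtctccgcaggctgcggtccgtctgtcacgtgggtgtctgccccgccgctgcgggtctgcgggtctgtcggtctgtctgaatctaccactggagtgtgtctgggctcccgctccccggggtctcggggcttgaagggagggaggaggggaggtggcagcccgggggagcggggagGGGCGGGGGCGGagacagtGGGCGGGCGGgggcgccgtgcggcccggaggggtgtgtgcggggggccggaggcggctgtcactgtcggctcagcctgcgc
The half-site AGAACA, searched on both strands, was in none of the 9 windows, while 19.0% of all 32851 promoters held it. The paired element, AGAACA and TGTTCT with 3 bases between them, was in none of the 9 either, and only 3 promoters in all (0.00913%) held it. A GC box was present in 7 windows of 7 members, Chrm3 being the member without it, against 35.7% of all promoters. The TATA box TATAAA, held by 13.6% of promoters, was in none. The 3 sequences printed hold 35 (Chrna7), 12 (Chrnb2) and 30 (Ache) CG dinucleotides, where the median promoter holds 7. The RefSeq start was not always the start of the gene coordinates given below. The windows of Ache and Chrna4 and a window of Chrna5 lie inside those coordinates, and that of Chrm4 ends before them. These matches describe letters in short windows, and binding was not measured.

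Among the Gq-coupled muscarinic receptors, Chrm1 (chr19:8663789-8683587, plus strand, protein coding) codes for M1, the main muscarinic receptor of forebrain pyramidal neurons. Its CORT effect in WT mice was 0.10 ± 0.07 (p 0.160, 95% interval -0.05 to 0.25), and that in BDNF het-Met mice was 0.12 ± 0.06 (p 0.0769, interval -0.02 to 0.25). Both estimates pointed the same way and were nearly equal, with a difference of 0.02 ± 0.09 (p 0.861). The mean over genotypes was 0.11 ± 0.05, or 1.08-fold, with an uncorrected p of 0.0338 by limma and an interval from 0.704% to 15.7% higher. This call was lost with the ordinary standard error (p 0.0586) and after centring by expression quintile (p 0.0948). Chrm3 (chr13:9875486-10360847, minus strand, protein coding) codes for M3, known best for gland secretion and smooth muscle contraction. Its estimates had opposite signs, at -0.15 ± 0.12 for WT mice (p 0.263) and 0.12 ± 0.11 for BDNF het-Met mice (p 0.290). The difference of 0.27 ± 0.17 was the largest among the members and its interval ran from -0.10 to 0.64 (p 0.133, adjusted p 0.9999 by Benjamini-Hochberg over all genes).

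The Gi-coupled receptors gave estimates near 0 or with wide intervals. Chrm2 (chr6:36388084-36528414, plus strand, protein coding) codes for M2, an autoreceptor on cholinergic terminals and the receptor that slows the heart. Its CORT effect was 0.0038 ± 0.11 for WT mice (interval -15.6% to 19.2%) and 0.03 ± 0.10 for BDNF het-Met mice (interval -12.3% to 19.1%). Chrm4 (chr2:91927249-91928688, plus strand, protein coding) codes for M4, which lowers transmitter release in striatum and hippocampus. In WT mice its estimate of 0.18 ± 0.16 (p 0.281) was the highest of the members, and the BDNF het-Met estimate was 0.04 ± 0.13 (p 0.752). The WT interval of Chrm4 ran from -0.17 to 0.52 on the log2 scale.

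Chrna4 (chr2:181018380-181043546, minus strand) and Chrnb2 (chr3:89746195-89764632, minus strand), both protein coding, code for the subunits that together form the main high-affinity nicotinic receptor of the brain. Chrna4 was the member with a negative estimate in both genotypes, -0.07 ± 0.19 for WT (p 0.716) and -0.11 ± 0.16 for BDNF het-Met (p 0.508). Chrnb2 had positive estimates, 0.12 ± 0.06 for WT mice (p 0.0914, the smallest of the members there) and 0.03 ± 0.06 for BDNF het-Met mice (p 0.590). The estimates of the partner subunits thus had opposite signs as deposited, while after centring by expression quintile that of Chrnb2 in BDNF het-Met mice was -0.0032, of the same sign as Chrna4, and in both genotypes the interval of Chrna4 (-28.2% to 26.5% for WT mice) spans that of Chrnb2 (-1.55% to 19.7% for WT mice). Of the exon bases of Chrnb2, 1365 (16.3%) also belong to exons of Adar, which codes for an RNA-editing enzyme and lies on the opposite strand. Adar itself had a CORT effect of 0.09 ± 0.06 for WT (p 0.152) and 0.15 ± 0.05 for BDNF het-Met mice (p 0.0103). Whether the counting used strand is not given in the sources used here, so what the overlap adds to or takes from the value of Chrnb2 is not known.

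Chrna7 (chr7:63098692-63212569, minus strand, protein coding) codes for the alpha7 subunit, which forms calcium-permeable channels by itself. Its CORT effect was 0.06 ± 0.11 in WT mice (p 0.623). In BDNF het-Met mice it was 0.21 ± 0.10, or 1.15-fold, with an interval of -0.866% to 34.1% and the smallest p of the members in that genotype (0.0623, adjusted p 0.404 by limma). The genotypes differed by 0.15 ± 0.15 (p 0.332), which is within the error. Chrna5 (chr9:54980880-55007779, plus strand, protein coding), an accessory subunit that joins receptors of alpha4 and beta2, was the member of lowest level and largest error. Its estimates were 0.00043 ± 0.29 for WT mice (p 0.999) and 0.26 ± 0.27 for BDNF het-Met mice (p 0.364). The interval in BDNF het-Met mice ran from -21.2% to 81.4%, so the largest estimate among the members was also the least certain in that genotype.

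Ache (chr5:137287519-137294466, plus strand, protein coding) was measured with the smallest error. Its CORT effect was 0.02 ± 0.05 in WT mice (p 0.723), with an interval of -6.06% to 9.13%. In BDNF het-Met mice it was 0.04 ± 0.04 (p 0.413), with an interval of -4.05% to 9.80%. A change in Ache past the fold minimum of 1.3 used for DEGs lies outside both intervals, and the same holds for Chrm1, Chrm2 and Chrnb2.

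The members differed in how much they varied between libraries of a group. Ranked by the ordinary standard error in BDNF het-Met mice among genes within 0.5 log2 CPM of the same mean, Ache lay at the 13.3 percentile (0.0354, where the median of such genes was 0.0545). Chrna4 lay at the 96.4 percentile, with a standard error of 0.198 where the median of such genes was 0.0641. Chrm3 (94.0) and Chrna5 (91.7) were also above the 90th percentile, which makes 3 of 9, against 1764 of all 17564 genes. The median percentile over the members was 85.1. High spread was not particular to them: of the 36 other cholinergic genes (below) 12 were above the 90th percentile, with a median of 84.5. Ache and Chrm3 had nearly the same mean level without regard to length (5.76 and 5.78 log2 CPM), but the ordinary standard error of Chrm3 was 0.133.

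**Figure D3:**
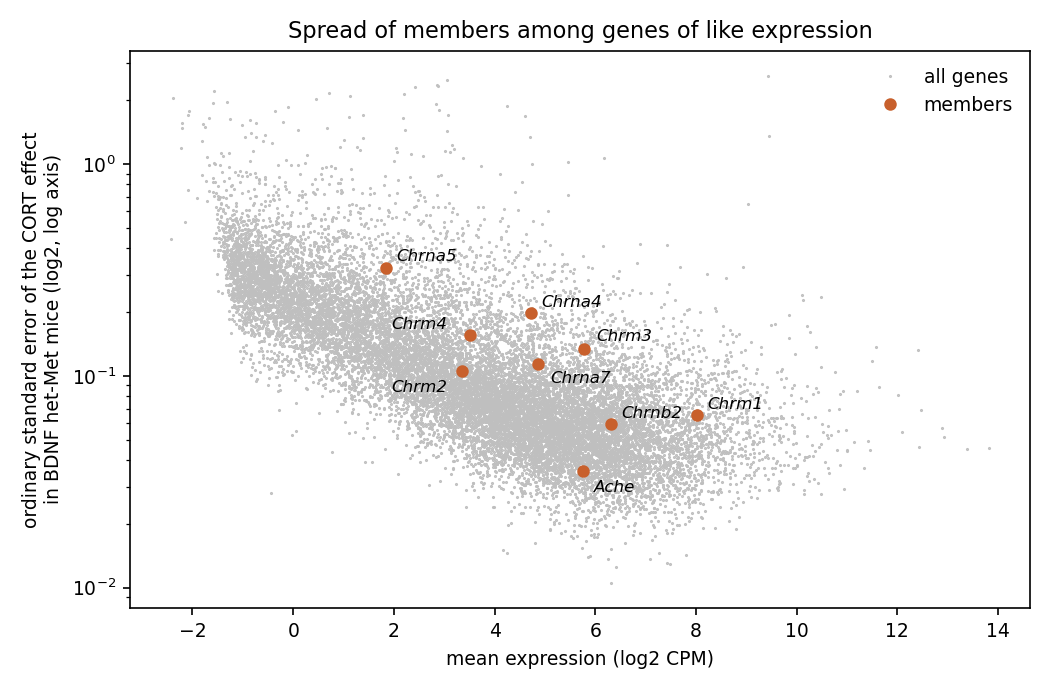
Ordinary standard error of the CORT effect in BDNF het-Met mice (vertical log axis, log2 units) against mean level (log2 CPM) for all genes in grey and the members in orange. Chrna4, Chrna5 and Chrm3 lie in the upper part of the cloud at their level, and Ache lies in its lower part.

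The only value that bears on the genotypes themselves is the joint F over 3 contrasts. From 3 times F the squared moderated t of both CORT comparisons was subtracted, and the unsigned remainder, to which no p is attached, is called the genotype statistic here. The subtraction is approximate, since the result fell below 0 for 610 genes (lowest -0.12). Ache had a genotype statistic of 8.12, rank 171 of 17564 genes and just above the 99th percentile of all genes (8.04), while both of its CORT effects were close to 0. The joint F of Ache had a p of 0.0776 by limma, the smallest of the members. Chrm1 followed with 2.39, and the other members lay between -0.000485 (Chrm2) and 1.70 (Chrm3). The median over the members was 1.46, against 0.43 over all genes. Which genotype had more Ache RNA cannot be read from this statistic. Of the members, 2 share chromosome 2 with Bdnf, the altered gene: Chrm4, 17.7 Mb away, had a genotype statistic of 1.27, and Chrna4, 71.3 Mb away, of 0.03.

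**Figure D4:**
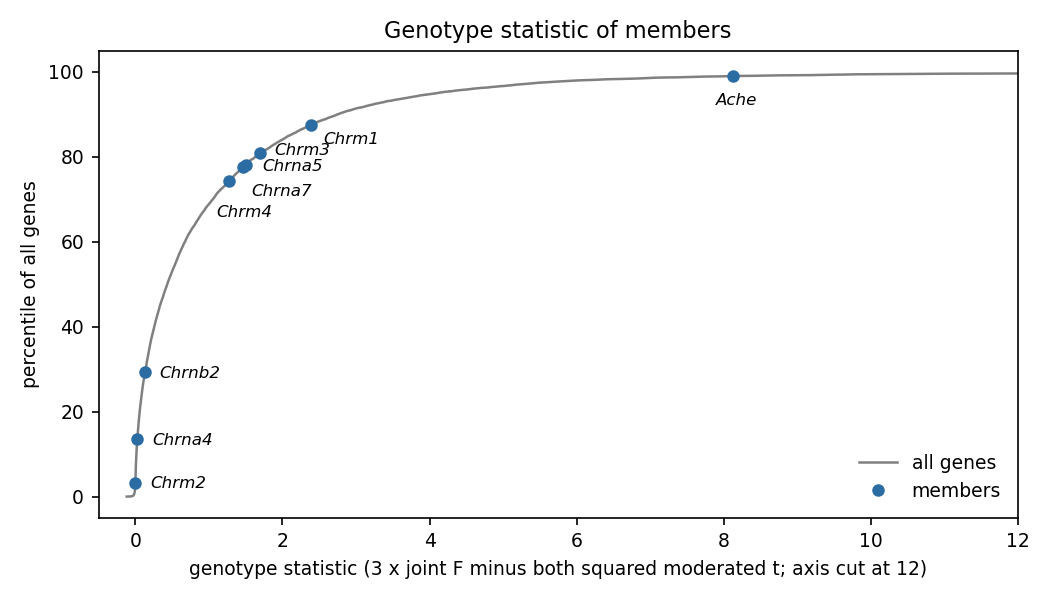
Genotype statistic (horizontal axis, 3 times the joint F minus both squared moderated t, shown up to 12) against its percentile among all genes, with the members as blue points. Ache lies at 8.12, apart from the other members, which lie at 2.39 or lower.

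To place the members in their pathway, 46 other cholinergic genes in 5 lists were taken, of which 36 were analysed here. In WT mice none of the 36 was called (background 3.83%). In BDNF het-Met mice 8 were called, 6 higher and 2 lower under CORT (22.2% of the 36, against 13.2% of all genes). Of the 36, 3 met the DEG rule there, against 3.24% of all genes. For the mean over genotypes 8 were called, 6 higher and 2 lower (22.2% of the 36, against 13.3% of all genes), and of these Lypd6, Kcnq3 and Kcnj6 were not called in BDNF het-Met mice. All of these calls are at uncorrected p, and the smallest adjusted p was 0.243 in BDNF het-Met mice (Gnai2, limma with Benjamini-Hochberg adjustment over all genes). A call in BDNF het-Met mice without a call in WT does not show a difference between genotypes, for which 3 of the 36 were called, all with the lower CORT effect in BDNF het-Met mice (background 2.41%).

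Of the other receptor subunits, 6 of 13 were analysed here, and all 6 had an estimate above 0 in BDNF het-Met mice, with a median of 0.31 (WT 0.12). Called among them were Chrm5 (chr2:112479171-112480769), the M5 receptor known from dopamine neurons, with 0.36 ± 0.15 (p 0.0382), and Chrna3, a subunit of ganglia and the medial habenula, with 0.47 ± 0.20 (p 0.0429). Their WT estimates were 0.12 ± 0.17 and 0.21 ± 0.22. Chrm5 lies 2.75 Mb from Bdnf and had a genotype statistic of 0.18. Chrna3 had a mean level of only 0.42 log2 CPM, and it also belongs to a list of medial habenula markers, of which 5 of 6 were analysed here, Chrnb4 of the receptor list included, with a median CORT effect of 0.12 (WT) and 0.29 (BDNF het-Met). In BDNF het-Met mice 2 of these 5 were called higher (Chrna3 and Nwd2) and 1 lower (Tac2, a neuropeptide of the medial habenula, -0.34 ± 0.15, p 0.0382). These calls were 60.0% of the 5, against 13.2% of all genes, and they went in both directions. Chrna3 itself counts in this share and in both medians, so neither is independent of its value. The part of the habenula in the value of Chrna3 was not tested.

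Of the genes for synthesis, storage, uptake and breakdown of acetylcholine, 7 of 9 were analysed here, with a median of -0.01 for WT (mean 0.11) and -0.25 for BDNF het-Met mice. Slc5a7, the high-affinity choline transporter of cholinergic terminals, had estimates of opposite sign: 0.90 ± 0.44 for WT mice (p 0.0642) and -1.21 ± 0.43 for BDNF het-Met mice (p 0.0171). The difference was -2.11 ± 0.61 (p 0.00562, adjusted p 0.9999, Benjamini-Hochberg over all genes). Its mean level was 0.20 log2 CPM, and of 7 cholinergic neuron markers it was the sole one analysed here. Chka, a choline kinase, was 0.12 ± 0.05 higher under CORT in BDNF het-Met mice (p 0.0299) and had an estimate of -0.01 ± 0.05 in WT mice.

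Of the chaperones and Ly6 proteins that set the number and sensitivity of nicotinic receptors, 7 of 8 were analysed here, with medians of -0.00053 (WT) and -0.10 (BDNF het-Met). Lynx1, a strongly expressed brake on nicotinic receptors (8.86 log2 CPM), was higher under CORT by 0.24 ± 0.09 in BDNF het-Met mice (p 0.0152), with 0.12 ± 0.10 in WT mice (p 0.245). Lypd6 was lower for the mean over genotypes (-0.28 ± 0.13, p 0.0497). Lypd1 was called for the difference between genotypes (-0.66 ± 0.28, p 0.0394), from 0.33 ± 0.21 (WT) and -0.33 ± 0.19 (BDNF het-Met), neither of which was called.

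Downstream of the Gq-coupled receptors all 7 listed genes were analysed here, with medians of 0.02 (WT) and 0.10 (BDNF het-Met). Kcnq3 codes for a channel subunit of the M current and was called for the mean over genotypes alone (0.15 ± 0.06, p 0.0461), with 0.15 ± 0.10 (WT) and 0.14 ± 0.09 (BDNF het-Met). Plcb4, a phospholipase C of this list, had estimates of -0.02 ± 0.13 (WT) and -0.06 ± 0.12 (BDNF het-Met). The study names it as a hub gene of a network built in part on these libraries. It reports Plcb4 as higher in mice susceptible to social defeat after enriched housing, a comparison that was not analysed here.

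Downstream of the Gi-coupled receptors all 9 listed genes were analysed here, with medians of 0.06 (WT) and -0.03 (BDNF het-Met, mean 0.04 and so of the other sign). Gnai2, an alpha subunit of Gi found in many cell types, was lower under CORT in BDNF het-Met mice (-0.23 ± 0.05, p 9.82e-04, the smallest of the 36) and had an estimate of -0.06 ± 0.06 in WT mice (p 0.341). The difference was -0.17 ± 0.08 (p 0.0478, adjusted p 0.9999). Kcnj3, a subunit of the potassium channels that Gi opens, was higher by 0.19 ± 0.06 in BDNF het-Met mice (p 0.0059), and its partner Kcnj6 for the mean over genotypes (0.27 ± 0.10, p 0.0191). Adcy1, a calcium-stimulated adenylyl cyclase, was higher by 0.38 ± 0.16 in BDNF het-Met mice (p 0.0330, WT 0.22 ± 0.18).

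**Figure D5:**
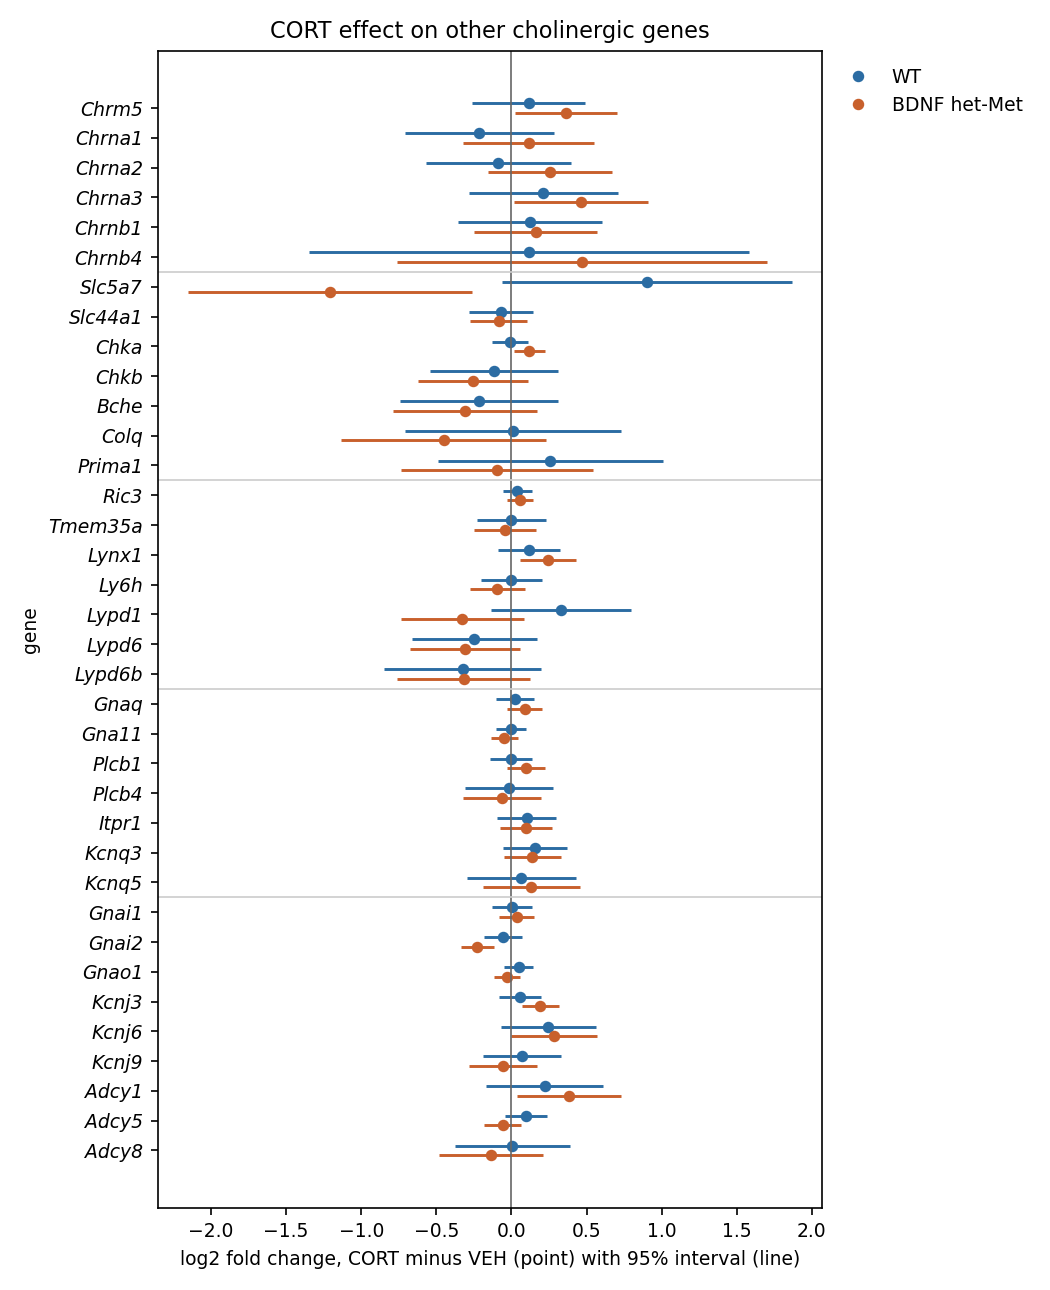
CORT effect on the 36 other cholinergic genes analysed here (log2 fold change of CORT over VEH, points) with 95% intervals (lines) in WT and BDNF het-Met mice, in 5 blocks from receptor subunits at the top to the Gi arm at the bottom. All 36 WT intervals include 0, and 8 intervals in BDNF het-Met mice do not.

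The tissue was checked against marker lists, whose CORT effects stand beside those of the members and whose calls are to be read against 3.83% (WT) and 13.2% (BDNF het-Met) of all genes. Markers of hippocampal excitatory neurons, where Chrm1 is mainly expressed, were all analysed (11 of 11, up to 12.1 log2 CPM for Camk2a), with a median CORT effect of 0.11 (WT) and 0.23 (BDNF het-Met). Called higher were 2 of them for WT mice (Spink8 and Camk2a, 18.2%) and 3 for BDNF het-Met mice (27.3%), and none was called lower. The 9 interneuron markers had medians of 0.06 and 0.0049, with 1 called lower for WT (11.1%), and 1 higher and 2 lower for BDNF het-Met (33.3%). The 8 striatal markers had medians of 0.00019 and -0.31, with all 8 estimates below 0 in BDNF het-Met mice and none called in either genotype. The 8 thalamic markers had medians of -0.03 and -0.16, with 2 called lower for BDNF het-Met (25.0%). The 8 choroid plexus markers had medians of -1.16 and 0.16 with median standard errors of 1.51 and 1.44, and none was called. The 5 blood markers had medians of 0.58 and 0.64, and none was called in either genotype, but for the mean over genotypes, the comparison in which Chrm1 was called, 3 of 5 were called higher (Hba-a2, Hbb-bs and Hbb-bt, against 13.3% of all genes). For that mean 3 of the 11 excitatory markers were also called higher. The part of cell composition or dissection in the values of the members was not tested.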

How the data were processed

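RNA of the ventral hippocampus had been sequenced as 75-bp single-end reads (35 to 40 M planned per library). Reads of a quality score under 15 were discarded, and the rest were aligned with STAR to GRCm38, counted per gene with featureCounts (Ensembl annotation) and fitted with limma-voom by the authors. For versions, the expression filter, normalization factors and use of strand the sources used here give nothing. The deposited log2 values are the mean log2 CPM, the log2 fold change (VEH minus CORT, sign turned here) and its ordinary standard error. The deposited p-values are the p of the joint F and, per comparison, the uncorrected and the Benjamini-Hochberg adjusted p. The deposited scores are the moderated t and the F. These columns are the comparisons of the authors themselves, used here since the tables analysed hold no value per library. The p recomputed from t at 10.91 total degrees of freedom, and the fresh adjustment, equalled those listed.

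The moderated standard error was taken as the log2 fold change over t. The difference (BDNF het-Met minus WT) and the mean of both CORT effects were tested two-sided per gene over all 17564 genes with the root of the summed squared standard errors, at the same degrees of freedom, after a check on simulated data. No library belongs to both comparisons, but both share the residual spread of each gene. Exon lengths and coordinates (from 1) came from GENCODE M21 on GRCm38 by Ensembl identifier (17557 matched, 7 did not). Transcripts were compared with blastn 2.17.0 (at least 75 bases at 95% identity), and besides Adar only short antisense transcripts outside the tables matched members. Scripts used Python 3.11.15, numpy 2.4.6, scipy 1.17.1 and pandas 2.3.3.

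The members, pathway lists and marker lists were chosen with earlier results of these data known, and 1 gene of the pathway lists is not reported here. By rule, all members were named, and of the other pathway genes those with p below 0.05 in either genotype or for the mean. Plcb4, Lypd1, Adar and the marker genes were named outside that rule. Alternatives were the ordinary standard error at the residual degrees of freedom, centring by expression quintile, p below 0.01, the fold minimum, genes above 0 log2 CPM, and t in place of the fold change.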

Additional observations from a re-analysis of the deposited data

Results flagged for a closer look

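No member was flagged. Of the other cholinergic genes, 3 had a CORT effect that differed between genotypes at an uncorrected p below 0.05, none with an adjusted p below 0.9999 (Benjamini-Hochberg over all genes). BDNF het-Met minus WT was -2.11 for Slc5a7 (p 0.00562), -0.66 for Lypd1 (p 0.0394) and -0.17 for Gnai2 (p 0.0478). Slc5a7 had a mean level of 0.20 log2 CPM.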

How the results depend on the processing

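The number of members called for the mean CORT effect over genotypes was 1 and became 0 with the ordinary standard error (Chrm1 p 0.0586) and after centring by expression quintile (Chrm1 0.08, p 0.0948). It was also 0 with p below 0.01, which follows from the p of Chrm1 in the main setting. The count of members called in WT, in BDNF het-Met mice and for the difference stayed 0 with the ordinary standard error and after centring. The stricter p and the fold minimum only tighten the call, so they could not raise a count of 0. With genes above 0 log2 CPM only, no member had an adjusted p below 0.05 in either genotype. Centring moved a member by at most 0.04 and turned the sign of 1 of 36 estimates (Chrnb2 in BDNF het-Met mice, 0.03). With t in place of the fold change 27 of 28 list medians kept their sign, and that of the striatal markers in WT mice moved to -0.01. No paired analysis was possible because the tables analysed hold no value per library, and for the same reason no replicate could be left out, so whether a single library sets a value is not known. Depth is unknown. The width of the intervals limits what can be seen: in WT mice from -6.06% to 9.13% for Ache, and from -35.6% to 55.4% for Chrna5.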
